A study of Homo sapiens with 22 samples.

Results

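The effect of an IL-6 knockdown virus in JHOC9 cells was read from 8 of the 22 arrays of the series. These were the 3 arrays titled as JHOC9 with IL-6 KD#58 (replicates b, d and e) and the 5 titled as JHOC9 with the NT control virus (replicates a to e), and all 65526 transcript clusters of the array were included. A transcript cluster is the array's unit for one transcribed region. JHOC9 is an established cell line of ovarian clear cell carcinoma, kept in 20% serum. Cells in 35 mm dishes received 1 lentivirus each, either virus #58 against IL-6 or the NT virus, so the knockdown rests on 1 virus for its target and both groups carry a lentivirus. For comparison, the JHOC9 arrays with virus #9 against SPINK1 (3 arrays, replicates a to c) and the JHOC5 arrays with IL-6 virus #58 (3 arrays, replicates a to c) or NT virus (5 arrays, replicates a to e) are given. JHOC5 arrays with virus #9 against SPINK1 (3 arrays, replicates c to e) are shown as well. JHOC5 is a second line of the same tumour type, kept in 10% serum. NT arrays are titled Experiments A to E. For the knockdown arrays no label speaks of separate cultures. The p-values then reflect only how far arrays differ within groups, over all 22 arrays of the series. Part of that may be technical.

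IL-6 is a secreted cytokine that binds its receptor and the shared signalling subunit gp130, and the complex activates JAK kinases and the transcription factor STAT3. Ovarian clear cell carcinomas are known for high IL-6 production. Knockdown lentiviruses commonly deliver a short hairpin RNA that guides the cleavage of messenger RNA with a matching sequence. The deposited tables do not pair cluster IDs with genes. The level of the IL-6 transcript, the markers of the tumour type and gene groups were therefore not analysed here, and clusters are named by their IDs, limited to 2 that rose and 2 that fell.

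Signals on the 8 arrays were of like overall level, with array medians between 4.80 and 4.95 on the log2 signal scale. Over all clusters the median SD was 0.111 among the 3 IL-6 KD arrays and 0.108 among the 5 NT arrays. A change had a median SE of 0.0861 (log2), and precision is limited by the number of arrays.

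With the IL-6 virus, JHOC9 cells had 132 clusters lower and 27 higher than with the NT virus (limma, two-sided, Benjamini-Hochberg adjusted p under 0.05). That is 0.243% of the 65526 clusters tested, 0.201% lower and 0.0412% higher. In such bulk samples, fewer cells with a transcript and less of it per cell cannot be told apart. The falls were modest in size. Their median log2 change was -0.45, and their range ran from -1.10 to -0.25. Of the 132 clusters, 1 fell at least 2-fold, a further 32 fell at least 1.5-fold and 99 fell by less. The 27 rises had a median log2 change of 0.39 and a range of 0.27 to 0.70, and 23 of them were under 1.5-fold. Over all clusters the median change was 0.03. An unadjusted p under 0.05 was found for 7045 clusters, 10.8% of those tested. Single arrays decided much of the count of 159. It was 70 when IL-6 KD replicate b was left out, 255 when d was and 24 when e was, and it was 65, 72 or 64 when NT replicate a, b or c was. Fitting the 8 arrays alone gave 2 calls.

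**Figure D1:**
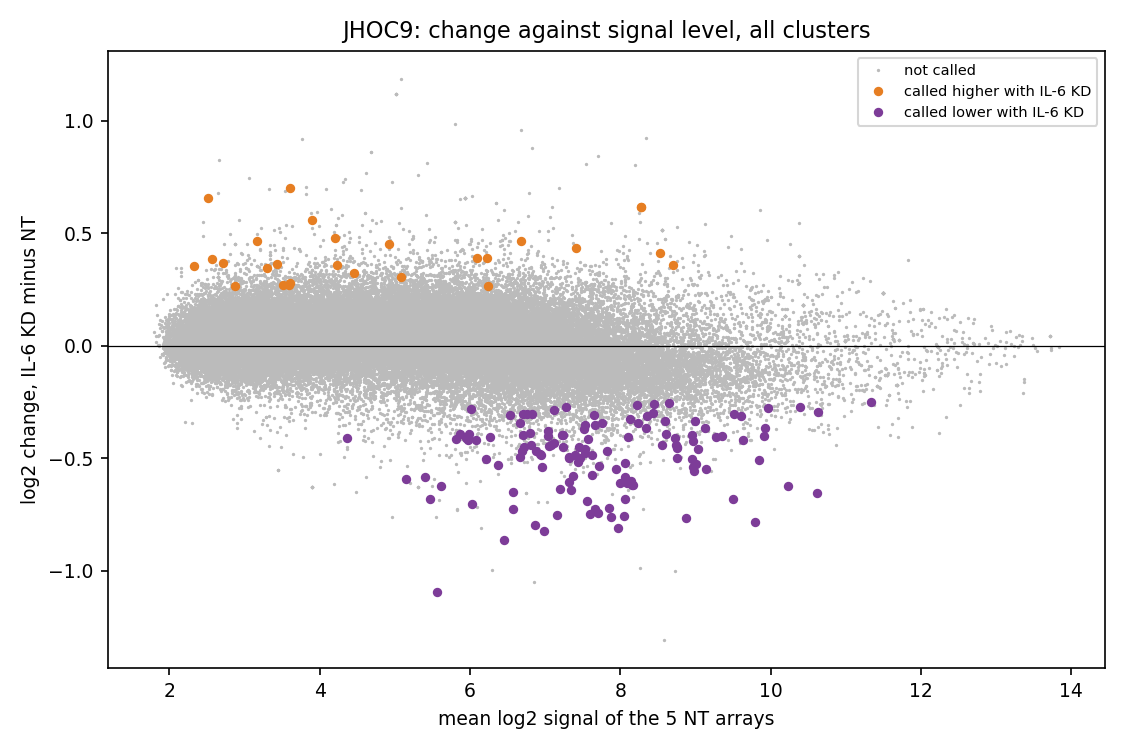
Each point is 1 of 65526 transcript clusters, with the mean log2 signal of the 5 JHOC9 NT arrays on the x axis and the log2 change (IL-6 KD minus NT) on the y axis. The 132 called falls (purple) lie mostly at high signal, while the 27 called rises (orange) are spread over the range and are frequent at low signal, and some larger changes (grey) were not called.

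The falls lay mostly in clusters of high signal. Median log2 signal of the 132 clusters was 7.10 in IL-6 KD arrays and 7.61 in NT arrays, against 4.92 and 4.87 over all clusters. When all clusters were split into 5 quintiles by their mean NT signal, the brightest held 107 of the 132 falls, or 0.816% of its clusters. The next quintile held 22, the middle one 3 and the 2 dimmest none. The rises numbered 6, 9, 3, 4 and 5 from the dimmest quintile upward, so 15 of the 27 were in the 2 dimmest. The median SE was 0.0755 in the dimmest quintile and 0.0873 in the brightest, and the median absolute log2 change over all clusters of those quintiles was 0.0537 and 0.102.

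**Figure D2:**
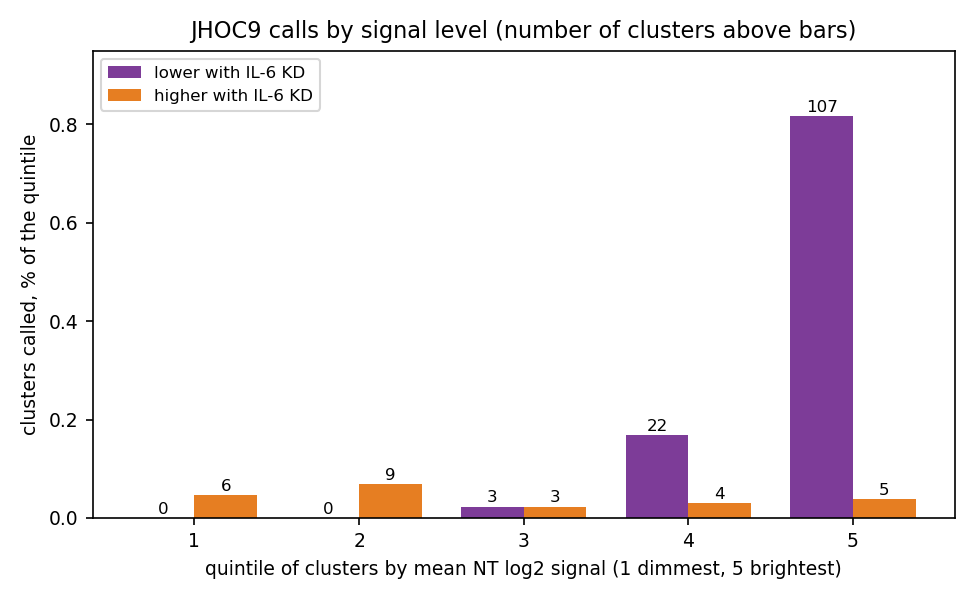
Bars give the share of clusters called lower (purple) or higher (orange) with the IL-6 virus in JHOC9, in percent of each quintile of clusters by mean NT log2 signal, with the number of clusters above each bar. Falls reached 0.816% in the brightest quintile and were absent from the 2 dimmest, and rises reached at most 0.0687%, in the second quintile.

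Large changes were rarely called. Of the 10 clusters whose means differed at least 2-fold, 9 did not pass the test, 6 with a higher and 3 with a lower mean in IL-6 KD arrays. In 7 of the 9 the IL-6 KD arrays overlapped the NT range. Their median SD among the IL-6 KD arrays was 0.563, against 0.141 among the 159 called clusters. In all 159 called clusters the IL-6 KD arrays were clear of the NT range, all 3 above it in the 27 rises and all 3 below it in the 132 falls. Over all clusters this held for 6.2%, above the range in 3.61% and below it in 2.59%. The call itself favours that separation.

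The cluster TC0X000101.hg.1, with X as the chromosome code in its ID, had the largest change among the falls that tied for the lowest adjusted p. Its log2 signal was 9.00, 8.88 and 9.16 in IL-6 KD replicates b, d and e, against 9.73, 9.84, 9.90, 9.62 and 9.91 in NT replicates a to e. Every knockdown array lay below every NT array, with a gap of 0.46 between the groups. Such separation was a condition for naming a cluster here. The log2 change was -0.79 ± 0.09 (means of 3 against 5 arrays, SE from the spread shared by all groups), a 1.72-fold fall. Its limma adjusted p was 2.23e-04. The same cluster had log2 signals of 9.62, 9.73 and 9.71 in SPINK1 KD replicates a to c, within the NT range, and the difference between the viruses was -0.67 ± 0.10 (limma adjusted p = 0.00204).

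TC05001393.hg.1, with chromosome code 5, came next in that tie and had log2 signals of 7.15, 7.53 and 7.22 in IL-6 KD replicates b, d and e, against 8.02, 7.94, 8.16, 8.02 and 8.14 in NT replicates a to e. IL-6 KD replicate d was the highest of the knockdown arrays and still 0.42 below the lowest NT array. The log2 change was -0.76 ± 0.08 (SE), or 1.69-fold lower, with a limma adjusted p of 2.23e-04. SPINK1 KD replicates a to c read 8.07, 8.10 and 8.12, inside the NT range. The difference from those arrays (IL-6 KD minus SPINK1 KD) was -0.80 ± 0.09 on the log2 scale (limma adjusted p = 4.13e-04). Both named falls sat high in the distribution of NT signals, above 98.4% and 92.7% of clusters.

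The rise with the lowest adjusted p was TC02003288.hg.1, with chromosome code 2. Its log2 signal was 4.23, 4.71 and 4.42 in IL-6 KD replicates b, d and e, against 3.71, 3.94, 3.92, 3.86 and 4.06 in NT replicates a to e. The groups did not overlap, and the gap of 0.17 was smaller than the SD of 0.24 among the knockdown arrays. The log2 change was 0.56 ± 0.10 (SE), with a limma adjusted p of 0.0142. SPINK1 KD arrays read 4.02, 4.29 and 4.16, which overlaps both groups, and the difference between the viruses did not pass the test (0.30 ± 0.11, limma adjusted p = 0.220). Its call was lost without IL-6 KD replicate d or e, at limma adjusted p of 0.0565 and 0.0832. It was also lost with the replicate letter as a block (0.0594), with only JHOC9 arrays in the fit (0.137) and with the 8 arrays alone (0.236), values that are again limma adjusted p.

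TC04001580.hg.1, with chromosome code 4, had log2 signals of 4.66, 4.78 and 4.60 in IL-6 KD replicates b, d and e, against 4.23, 4.16, 4.04, 4.29 and 4.30 in NT replicates a to e. All knockdown arrays were above all NT arrays. The log2 change was 0.48 ± 0.08 (SE), with a limma adjusted p of 0.0150. SPINK1 KD arrays lay at 4.17, 4.35 and 4.22, below the IL-6 KD arrays, and the difference between the viruses was 0.44 ± 0.09 (limma adjusted p = 0.0339). Both named rises were dim, above 33.4% and 38.8% of clusters in NT signal. The call of TC04001580.hg.1 was lost without any 1 of the IL-6 KD replicates b, d and e, at limma adjusted p of 0.0540 to 0.0582, with only JHOC9 arrays (0.0607) and with the 8 arrays alone (0.144).

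**Figure D3:**
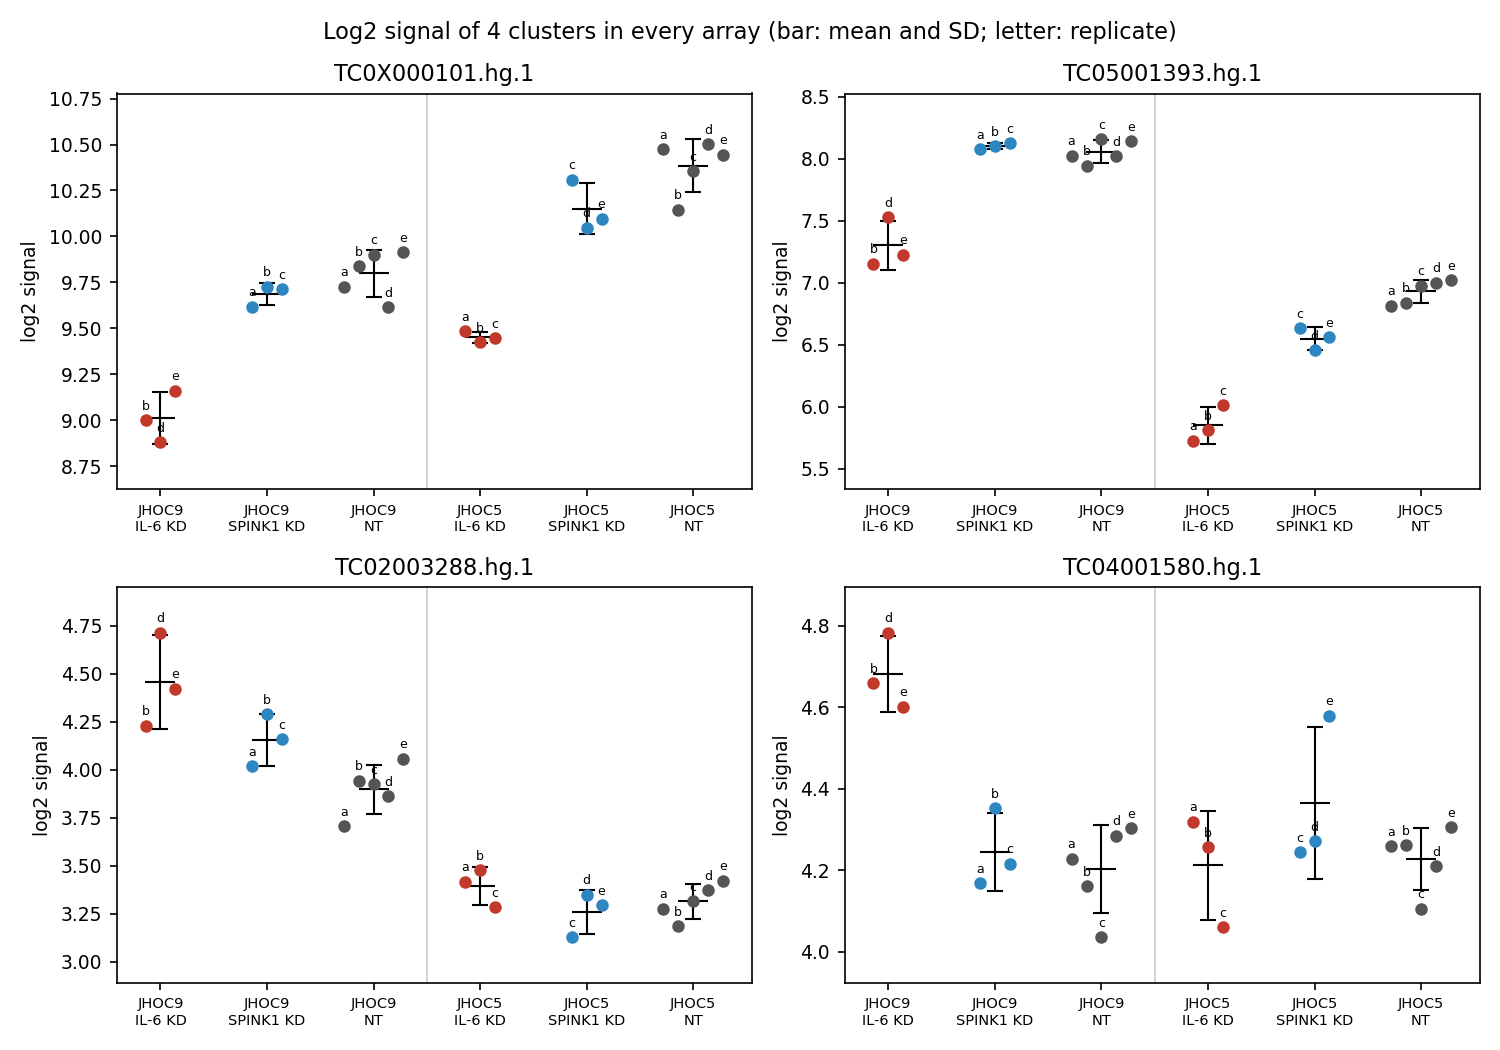
Each point is the log2 signal of a cluster on 1 array, for the 3 virus groups of JHOC9 and of JHOC5, with replicate letters, and bars give the mean and SD. In JHOC9 the IL-6 KD arrays of TC0X000101.hg.1 and TC05001393.hg.1 lie below all NT arrays, and those of TC02003288.hg.1 and TC04001580.hg.1 lie above them, a separation that the naming rule required.

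The 3 knockdown arrays carried the falls unequally. The median deviation of the 132 clusters from the NT mean was -0.48, -0.33 and -0.55 on the log2 scale in IL-6 KD replicates b, d and e, against a range of -0.08 to 0.05 over the 5 NT arrays. For the 27 rises the medians were 0.36, 0.36 and 0.38 in the same knockdown arrays, against -0.04 to 0.03 in the NT arrays. These arrays chose the clusters, so the values are a description. Replicates also differed over the whole array. Replicate b lay outside the NT range for 46.7% of all clusters and replicate d for 30.8%, with replicate e between them. Single NT arrays also left the range of the other NT arrays, which is a range of fewer arrays. NT replicate d was above it for 37.1% of clusters and below it for 14.3%. For NT replicate c these shares were 10.5% and 18.1%. Some NT array is highest and another lowest on every cluster, so the total of the NT shares is fixed by construction. Whether the shares of the knockdown arrays are unusual was not tested. NT replicate d had the lowest median deviation of the NT arrays over the falls, at -0.08.

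**Figure D4:**
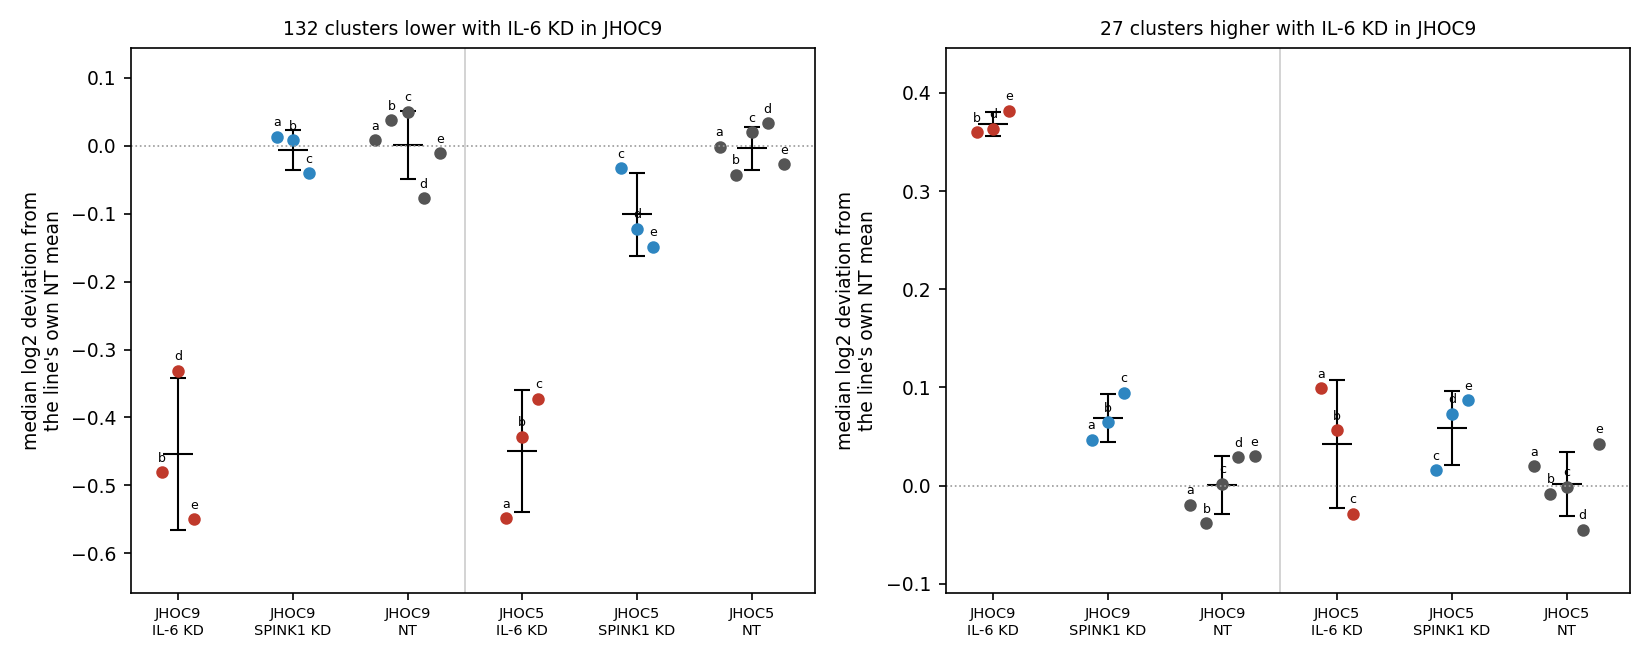
Points give, for each array, the median log2 deviation from its own line's NT mean over the 132 clusters called lower (left) and the 27 called higher (right) in JHOC9, with replicate letters and the mean and SD of each group. The IL-6 KD arrays of both lines lie between -0.55 and -0.33 for the falls, while for the rises those of JHOC9 lie at 0.36 to 0.38 and no array of another group lies above 0.10.

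Leaving out each of the 8 arrays in turn showed which calls depended on a single array. Of the 132 falls, 19 were called in all 8 of these fits, and of the 27 rises, none. The fit without IL-6 KD replicate e kept 21 of the falls and 2 of the rises, and the fit without NT replicate d kept 127 and 23. The 19 clusters had a median log2 change of -0.64, with a range of -1.10 to -0.45, and a median NT signal of 7.99. All 19 were also lower than with the SPINK1 virus in the direct test, against 0.507% of all clusters. The same IL-6 KD arrays and the shared SE had chosen these clusters, which favours that outcome. TC0X000101.hg.1 and TC05001393.hg.1 were among the 19.

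The SPINK1 virus offers a second knockdown virus in the same line, and the direct contrast between the viruses uses no NT mean. The spread of the NT arrays still enters its SE, which all groups share. In that contrast 332 clusters were lower and 80 higher with the IL-6 virus than with the SPINK1 virus (0.507% and 0.122% of clusters, 0.629% in all, limma, adjusted p under 0.05). Of the 332, 272 were in the brightest quintile of NT signal, and so were 38 of the 80. Of the 132 falls against NT, 91 were also lower than with the SPINK1 virus, and of the 27 rises, 9 were also higher. The same IL-6 KD arrays enter both contrasts and chose these clusters, which favours such calls. Another 241 of the 332 were not called against NT. Their median log2 change was -0.24 with the IL-6 virus against NT and 0.18 with the SPINK1 virus against NT, and both comparisons use the same NT arrays. Over the 132 falls, the median deviations of the SPINK1 KD arrays were 0.01, 0.01 and -0.04 for replicates a, b and c. The count of 412 for either direction became 272 and 115 when IL-6 KD replicate b or e was left out, and 101 and 115 when SPINK1 KD replicate a or b was. The 6 arrays fitted alone gave 0 calls by limma, with 6623 clusters at an unadjusted p under 0.05.

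The same IL-6 virus was used in JHOC5. The means of the JHOC5 arrays did not enter the JHOC9 change, but their spread entered the SE shared by all groups, so a low spread in JHOC5 favoured a JHOC9 call and the separations and calls in JHOC5 given here are not independent of the choice. Of the 132 clusters that fell in JHOC9, 127 had a lower mean in JHOC5 IL-6 KD than in JHOC5 NT arrays, against 40.6% of all clusters. The median log2 change of the 132 in JHOC5 was -0.47, against 0.02 over all clusters. In 99 of them every JHOC5 IL-6 KD array lay below every JHOC5 NT array, as in 3.52% of all clusters. The median deviations over the 132 clusters were -0.55, -0.43 and -0.37 in JHOC5 IL-6 KD replicates a to c, against -0.04 to 0.03 in the JHOC5 NT arrays. TC0X000101.hg.1 had log2 signals of 9.48, 9.42 and 9.45 in JHOC5 IL-6 KD replicates a to c, against 10.47, 10.14, 10.36, 10.50 and 10.45 in JHOC5 NT replicates a to e. TC05001393.hg.1 read 5.72, 5.81 and 6.01 in the JHOC5 IL-6 KD arrays, against a lowest value of 6.82, a median of 6.97 and a highest of 7.02 in the JHOC5 NT arrays. In both clusters the groups were apart, with JHOC5 log2 changes of -0.93 ± 0.09 and -1.08 ± 0.08 (SE) and limma adjusted p of 2.05e-06 and 2.34e-07. SPINK1 KD replicates c to e of JHOC5 read 6.63, 6.45 and 6.56 for TC05001393.hg.1, all below the lowest JHOC5 NT array. For TC0X000101.hg.1 they read 10.31, 10.05 and 10.10, with d and e below the lowest JHOC5 NT array. Over the 132 clusters their median deviations were -0.03, -0.12 and -0.15.

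The clusters that fell in JHOC9 were not alike in JHOC5. Those called lower there as well, 87 of the 132, against 0.954% of all clusters, had a median log2 change of -0.65 in JHOC5 and -0.45 in JHOC9. The other 45 had medians of -0.14 in JHOC5 and -0.49 in JHOC9. The JHOC5 call made this split, so its medians are a description. Median NT log2 signal was 7.82 and 7.21 for these sets in JHOC5, and 7.60 and 7.63 in JHOC9. Among the 19 falls called in every fit with 1 array left out, 18 were called lower in JHOC5, with a median log2 change of -0.93 over the 19. With each line fitted on its own arrays, no estimate of the spread was shared. JHOC9 then had 31 falls and JHOC5 had 457, each out of 65526 clusters. The lines had 22 in common, which is 71.0% of the JHOC9 list and 4.81% of the JHOC5 list. All 31 had a lower mean in JHOC5, against 40.6% of all clusters. The fit of JHOC5 alone and the overlap were chosen after seeing the data.

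**Figure D5:**
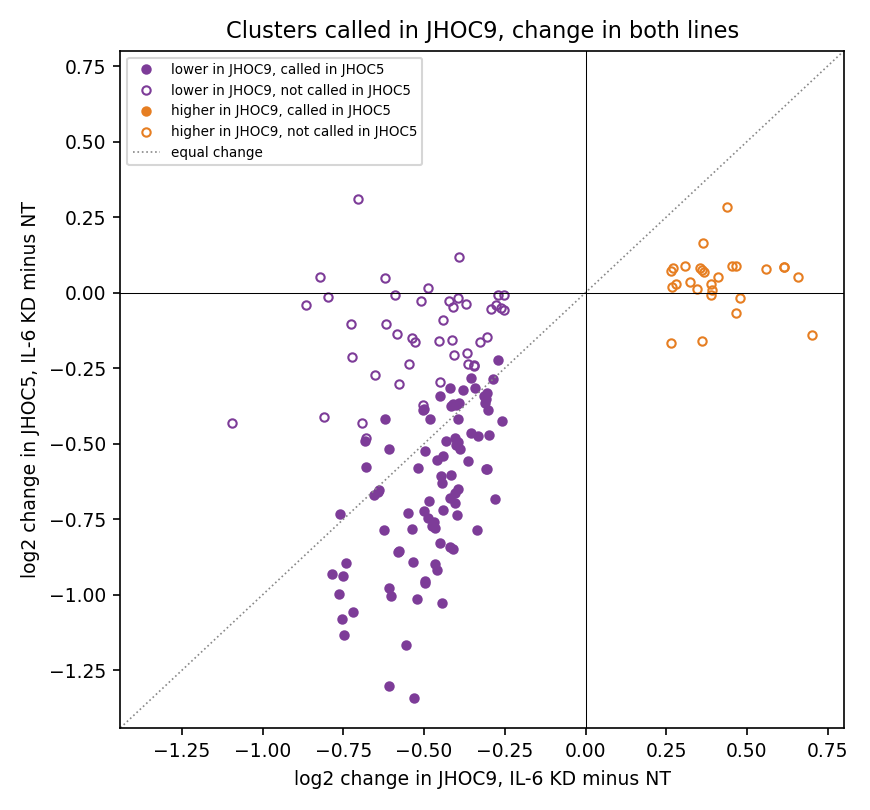
Each point is 1 of the 159 clusters called in JHOC9, with its log2 change (IL-6 KD minus NT) in JHOC9 on the x axis and in JHOC5 on the y axis, filled where it was also called in JHOC5, and the dotted line marks equal changes. Of the 132 falls, 127 lie below 0 on the JHOC5 axis, and the 27 rises lie close to 0 there, between -0.17 and 0.28.

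The 27 rises of JHOC9 were followed in JHOC5 as well. None of the 27 was called in JHOC5 by limma, in either direction, and 4 had an unadjusted p under 0.05, 2 higher and 2 lower, as did 9.16% of all clusters. Of all clusters 1.39% were called in JHOC5, and 0.435% were called higher, so a count of 0 among 27 is near the general share. Over the 27 the median JHOC5 log2 change was 0.05. A higher mean was found for 21 of them, against 59.4% of all clusters. TC02003288.hg.1 had log2 signals of 3.42, 3.48 and 3.28 in JHOC5 IL-6 KD replicates a to c, against 3.28, 3.19, 3.32, 3.37 and 3.42 in JHOC5 NT replicates a to e, and the groups overlapped. TC04001580.hg.1 read 4.32, 4.26 and 4.06 with the IL-6 virus, against 4.26, 4.26, 4.11, 4.21 and 4.31 with NT, which also overlapped. The difference between the lines (JHOC9 minus JHOC5) was 0.48 ± 0.14 and 0.49 ± 0.12 (SE) for these clusters, with limma adjusted p of 0.405 and 0.258, so it was not shown. Of all 159 clusters, 1 passed the test of a difference between the lines, and it was a fall. Over all clusters 2 passed (0.00305%), 1 in each direction (0.00153% each), and 4373 had an unadjusted p under 0.05. Line and serum cannot be told apart in these comparisons.

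The called clusters were spread over most chromosome codes of the IDs. The characters after TC follow the array maker's chromosome numbering. Of 23 codes with at least 900 clusters, 21 held a called cluster, and codes 18 and 21 held none. Among these 23 codes the share called was highest for code 22, with 6 of 962 clusters or 0.624%, and for code X, with 12 of 2329 or 0.515%. Code Y, which has fewer than 900 clusters, held 2 calls of 357 or 0.560%, both falls. Code 1 held 21 calls, the largest number, of which 14 were lower and 7 higher. All calls on codes 3 and 5, 10 on each, were falls. Counts of this size allow no order among the codes.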

How the data were processed

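The GeneChip Human Transcriptome Array 2.0 was used with 200 ng of total RNA, per the labels. The submitters' processing notes name RMA, with no version, a method of background correction, normalization between arrays and probe summary. For its software, annotation and build, the sources used here give no name. The authors deposited log2 values centred on each cluster's median, and linear intensity values (2.81 to 15242) that the file header calls raw. The deposited log2 values equal log2 of that intensity minus the cluster's median within 2.06e-06. Sorted log2 values of the arrays lay within 0.423 of each other, near a common distribution, so an overall shift in RNA content may be reduced or removed.

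Groups came from the titles. All 22 arrays entered 1 limma 3.58.1 model (R 4.3.3, tables read by data.table, version 1.17.8) with 6 group means, 16 residual and 4.22 prior degrees of freedom, two-sided eBayes tests and Benjamini-Hochberg adjustment over 65526 clusters. The model was tested on simulated data. Alternatives covered fewer arrays in the fit, a replicate block, other scalings, a filter on dim clusters, eBayes options, array weights, thresholds and each array left out. Figures used matplotlib 3.10.9 under Python 3.11.15. Named clusters were the 2 rises and 2 falls with the lowest adjusted p whose IL-6 KD arrays all lay outside the NT range, ties going to the larger change. The comparison, the rules and most alternatives were chosen with earlier results of these data known. The preset gene lists and markers need gene names and were not analysed here. With a tolerance of 1e-05 on every array, 1034 clusters repeated another cluster's values, 1 of them called.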

Additional observations from a re-analysis of the deposited data

Results flagged for a closer look

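The change with the IL-6 virus differed between JHOC9 and JHOC5 for 2 clusters by limma's test of the difference, 1 in each direction, and 1 of them was also called in JHOC9. That count was 0 in several alternatives. Among 14 groups of 5 arrays checked, all of them NT arrays, no array stood apart from the others in a named cluster or in a median over the called clusters. The groups of knockdown arrays are smaller and were not checked.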

How the results depend on the processing

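The IL-6 virus count of 159 in JHOC9 was 33 when only JHOC9 arrays were fitted, 2 with the compared groups alone, 86 with eBayes with trend and robust, 37 at 1.5-fold or more and 31 at an adjusted p under 0.01, and 24 to 255 without single arrays. Falls outnumbered rises in all 20 alternatives, of which log2 of the linear values repeats the main fit by construction. The split of 27 higher and 132 lower was 10 and 102 with median-centred arrays, 15 and 97 after cyclic loess, 14 and 158 without dim clusters (above the array median on fewer than 3 arrays) and 63 and 141 with array weights. Without IL-6 KD replicate b it was 25 and 45. Same-letter arrays of the IL-6 KD and NT groups had deviations correlated at 0.31, -0.04 and 0.48 for b, d and e. Pairs of different letters ran from -0.37 to 0.29, so b and e were above all of them and d was among them. The labels do not say whether letters pair the arrays, and the block was used as an alternative only. With the replicate block 176 clusters passed, 87 of them among the 159.

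The difference between the lines, 2 clusters, was 0 by limma with the compared groups alone, with arrays centred, after cyclic loess and with trend and robust, where an unadjusted p under 0.05 was found for 4216, 4232, 4600 and 4241 clusters. The count was 0 at an adjusted p under 0.01, 1 at 1.5-fold or more, 7 with the replicate block, 507 with array weights, and 0 to 12 without single arrays. The 412 clusters that differed between the viruses became 42 when only JHOC9 arrays were fitted, 88 with the replicate block, 0 with the compared groups alone, 230 with trend and robust, 82 at 1.5-fold or more, 97 at an adjusted p under 0.01, 7489 with array weights (4428 higher and 3061 lower with the IL-6 virus), and 101 to 483 without single arrays. The array weights were uneven. JHOC9 SPINK1 KD replicate b had 6.46, against 0.594 and 0.419 for a and c. JHOC5 IL-6 KD replicate b had 3.28, against 0.319 and 0.757 for a and c. The counts with array weights thus lean on single arrays. With arrays centred, 21 clusters were higher and 337 lower with the IL-6 virus than with the SPINK1 virus, against 80 and 332. The causes of these shifts were not tested, except that stricter thresholds call fewer clusters by construction.

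Both named falls kept their call in 16 of 17 alternatives and lost it with the compared groups alone, at limma adjusted p of 0.0605 and 0.0675. Both named rises kept theirs in 11 of 16. The median JHOC5 change over the JHOC9 falls stayed between -0.90 and -0.35. Changes under about 0.25 on the log2 scale were not called at this number of arrays.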
